A study of Saccharomyces cerevisiae with 6 samples.

Results

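These results describe 10 genes of secretory and vesicle traffic in budding yeast that carry an intron: YIP3, YOP1, SAR1, SEC27, ERV41, BET1, BOS1, SNC1, SEC17 and SEC14. They were chosen by gene name from a table of 239 intron-containing genes, all 10 had exactly 1 row, and none of their 90 values was missing. The tested cells carried the S2197F form of PRP8 as their only copy, on a HIS-marked CEN plasmid, with the genomic gene deleted. The wild type cells carried the same genomic deletion and a plasmid with wild type PRP8. Both were moved to 37 °C in rich medium and harvested in log phase, at an OD600 of about 0.7. Wild type RNA was the other channel of each array, so wild type has no values of its own. Prp8 is the large protein at the centre of the spliceosome, and changes in human PRPF8 cause retinitis pigmentosa. The series asks how such changes in Prp8 affect splicing.

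Secreted and membrane proteins leave the endoplasmic reticulum in vesicles with a COPII coat. Vesicles with a COPI coat run back from the Golgi to the endoplasmic reticulum. SNARE proteins on vesicle and target membranes pair to drive fusion and are then taken apart for another round, while small GTPases of the Rab family guide the vesicles to their targets. Among the 10 genes, YIP3 and YOP1 encode membrane proteins that bind the Rab machinery, SAR1 and SEC27 coat proteins, ERV41 a protein carried in COPII vesicles, BET1, BOS1 and SNC1 SNAREs, SEC17 a factor that helps to take SNAREs apart, and SEC14 a lipid transfer protein of the Golgi.

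Each value is a log2 ratio of S2197F over wild type, so 0 is no difference and a positive value is more signal in S2197F. The base of the logarithm is not given in the sources used here and was taken as 2, and every fold change rests on that. Each gene has an exon feature, an intron feature and an exon junction feature. Per the labels these stand for its total, unspliced and spliced mRNA. An intron feature also takes up splicing intermediates and excised introns. There were 3 replicates, each a pair of independent cultures measured on an array and its dye exchange, for 6 arrays in all, and the values of the replicates are given in the order 1, 2 and 3. Means are given ± limma's SE (n = 3), and "rose" or "fell" is written of an adjusted p under 0.05. The ratios compare shares of labelled RNA, so less of one transcript and more of all others cannot be told apart. No row is named PRP8, so the genotypes were not checked in these values.

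The first question was which of these introns gave more signal in S2197F. Only YIP3 passed the test, so 1 of the 10 introns rose and 0 fell, against 59 higher (23.5%) and 0 lower (0%) of 251 introns in the whole table. Apart from ribosomal protein genes, which made up 44 of those 59, 15 of 149 introns rose (10.1%). The share among the traffic genes was therefore near that of other genes outside the ribosome. Unadjusted, 3 of the 10 introns were higher at p under 0.05, those of YIP3, YOP1 and SEC17, against 90 of 251 in the table and 25 of 149 outside ribosomal protein genes. The introns of 5 genes were above 0 in every replicate (YIP3, YOP1, SAR1, SEC27 and SEC17), against 126 of 245 measured in every replicate (51.4%). Ribosomal protein genes made up 83 of those 126 introns.

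YIP3 encodes a small membrane protein of the family that binds Rab GTPases. Its intron had 1.11, 0.65 and 2.15 in the 3 replicates, a mean of 1.30 ± 0.27 (2.47-fold, limma adjusted p = 0.021). It was the highest of the 10 introns in every replicate. Among all introns of the table it ranked 5 of 251 by its mean, and 17, 26 and 3 in the single replicates. Its SD over replicates, 0.77, was the seventh largest of the 251, so its height is imprecise, though all 3 values were above 0. Without replicate 2, where 2 of 245 introns in the table passed, the mean was 1.63 and the test was no longer passed (adjusted p = 0.13). With the variance of this feature alone the adjusted p was 0.27.

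YOP1 encodes a protein that curves the membrane of tubules in the endoplasmic reticulum and binds Yip1, a partner of Rab proteins. Its intron had 0.74, 0.22 and 0.56 (0.51 ± 0.17, 1.42-fold, adjusted p = 0.066). All 3 values lay above 0, with replicate 2 the lowest. When the exon median of a replicate was subtracted from all its values (-0.15, -0.068 and -0.19 in the 3 replicates), the YOP1 intron was at 0.64 and passed (adjusted p = 0.027). That centring took the calls over all introns from 59 to 91 of 251. Under no other setting run did the YOP1 intron pass.

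**Figure D1:**
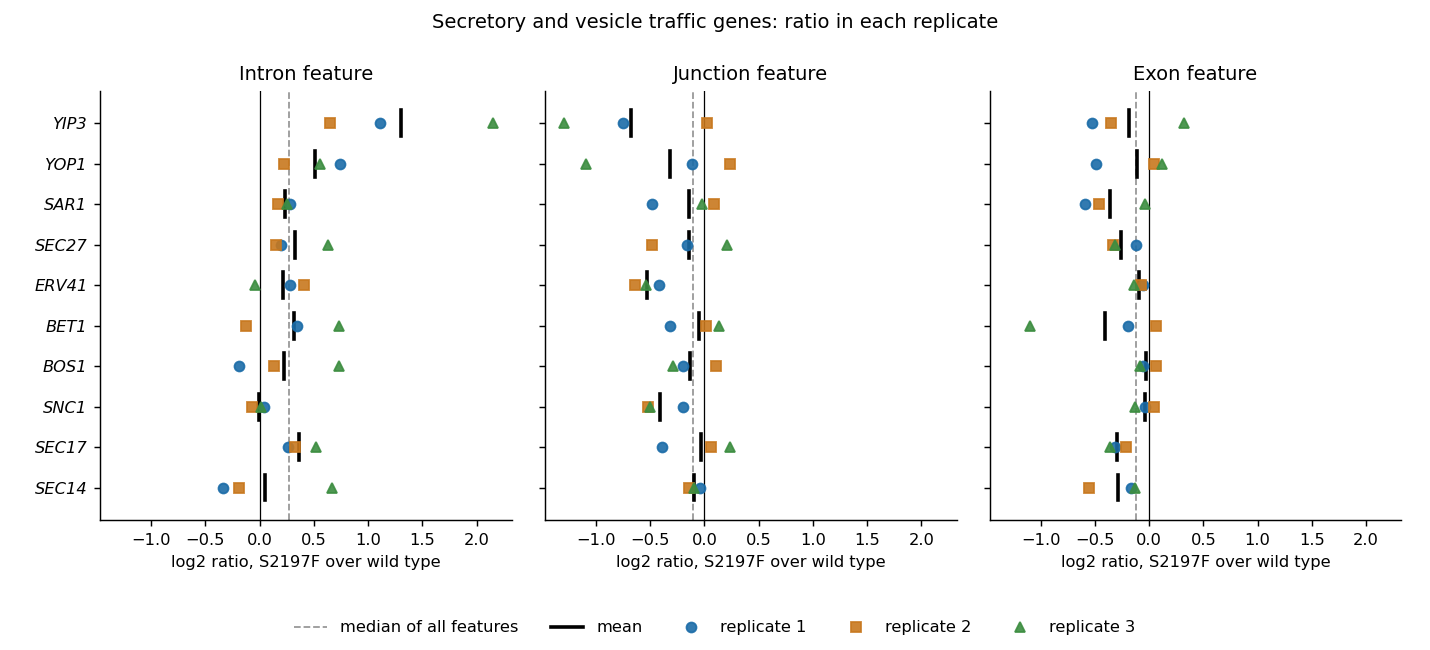
Log2 ratio of S2197F over wild type (horizontal axis) for the intron, junction and exon feature of each gene (rows), with 1 symbol per replicate, a black bar at the mean and a dashed line at the median of all features of the class. YIP3 has the highest intron value in each replicate, and its junction value is the lowest of the 10 in replicates 1 and 3 but 0.020 in replicate 2.

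The coat protein genes had small positive intron ratios near the median of the means of all introns, 0.27. SAR1, the GTPase that starts the COPII coat, had 0.28, 0.17 and 0.25 (0.23 ± 0.15, adjusted p = 0.32), which gave it an SD of 0.055. SEC27, a subunit of the COPI coat, had 0.20, 0.15 and 0.63 (0.32 ± 0.17, adjusted p = 0.22). All 6 intron values of these genes were above 0. ERV41, whose product cycles between the endoplasmic reticulum and the Golgi, had 0.28, 0.41 and -0.041 (0.21 ± 0.17, adjusted p = 0.39).

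None of the 3 SNARE introns passed the test. BET1 and BOS1 encode SNAREs of transport from the endoplasmic reticulum to the Golgi. The BET1 intron had 0.35, -0.13 and 0.73 (0.32 ± 0.20, adjusted p = 0.29). The BOS1 intron had -0.19, 0.14 and 0.73 (0.23 ± 0.20, adjusted p = 0.46). For both, replicate 3 was the highest and 1 other replicate was below 0. SNC1 encodes a SNARE of secretory vesicles at the plasma membrane. Its intron had 0.038, -0.074 and 0.011 (-0.0082 ± 0.15, adjusted p = 0.98), the lowest mean of the 10. The 95% interval of that mean, -0.36 to 0.35, leaves out the change seen for YIP3 but not the median of all introns.

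SEC17 encodes the yeast alpha-SNAP protein, which works with an ATPase to separate SNAREs after fusion. Its intron had 0.26, 0.32 and 0.52 (0.37 ± 0.16, adjusted p = 0.13), with all 3 values above 0. It passed after centring on exon features, at 0.50 (adjusted p = 0.040), and under no other setting run. SEC14 encodes the phosphatidylinositol and phosphatidylcholine transfer protein that the Golgi needs to form vesicles. Its intron had -0.34, -0.19 and 0.67 (0.047 ± 0.22, adjusted p = 0.91). Its replicates disagreed in sign, with 1 above 0 and the other 2 below.

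In order of the mean the introns ran YIP3, YOP1, SEC17, SEC27, BET1, SAR1, BOS1, ERV41, SEC14 and SNC1. YIP3 stood 0.80 above YOP1, with an SE of that gap of 0.32, and their 95% intervals, 0.68 to 1.93 and 0.11 to 0.90, overlapped. From YOP1 downward no neighbouring pair differed by more than 0.17, which was below the SE of the gap in every case. Over the 10 introns the median was 0.27, 0.16 and 0.59 in the 3 replicates (0.34 ± 0.23, SD, n = 3). Over all introns it was 0.22, 0.29 and 0.38 (0.30 ± 0.081, SD, n = 3), and over genes other than ribosomal protein genes -0.048, 0.18 and 0.27 (0.13 ± 0.16, SD, n = 3). The gap to all introns is smaller than the spread of the replicate medians. The gap to genes other than ribosomal protein genes is about as large as that spread, and in replicate 2 the median of the 10 introns was the lower one. Replicate 3 held the highest intron value for 6 of the 10 genes, and replicate 2 the lowest for 6.

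**Figure D2:**
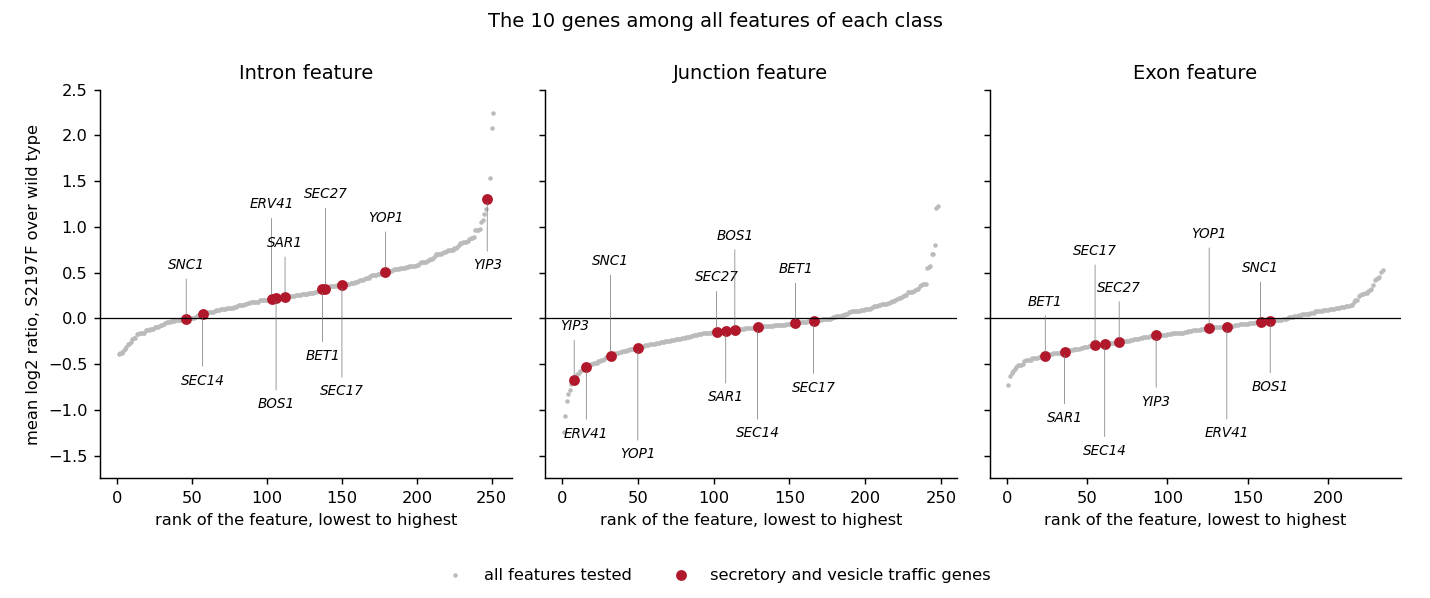
Mean log2 ratio of S2197F over wild type (vertical axis) for all features of each class, ranked from lowest to highest (horizontal axis), with the 10 genes in red and all features tested in grey. YIP3 lies at rank 5 from the top of 251 introns and at rank 8 from the bottom of 248 junctions, while its exon lies well inside the range.

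The second question was whether spliced mRNA of these genes was less abundant. All 10 junction means were below 0, where 177 of 248 junctions in the table were, but no gene of the 10 passed the test by limma (0 calls, against 1 lower, 0.403%, and 0 higher, 0%, of 248). At an unadjusted p under 0.05, 3 were lower and 0 higher, those of YIP3, ERV41 and SNC1. At that level 29 of all 248 junctions were lower and 4 higher, and outside ribosomal protein genes 12 of 146 were lower and 4 higher.

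The YIP3 junction had -0.75, 0.020 and -1.30 (-0.68 ± 0.25, adjusted p = 0.27). Its mean was the lowest of the 10 and ranked 8 from the bottom of 248. Replicate 2, in which the intron was least raised, was also the one without a low junction. In YOP1 the junction had -0.12, 0.24 and -1.09 (-0.32 ± 0.25, adjusted p = 0.63). That mean was set by replicate 3, and without it the mean was 0.062.

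ERV41 and SNC1 followed YIP3 in the order of the junction means. For ERV41 the values were -0.42, -0.64 and -0.54 (-0.53 ± 0.16, 1.45-fold lower, adjusted p = 0.19), with all 3 below 0 and an SD of 0.11. For SNC1 they were -0.20, -0.52 and -0.50 (-0.41 ± 0.16, 1.33-fold lower, adjusted p = 0.33), also with all 3 below 0. Neither gene had an intron ratio that stood above the median of the table.

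The other genes had junction means between -0.14 and -0.031. SEC27 had -0.16, -0.48 and 0.21, and SAR1 -0.48, 0.087 and -0.020. BOS1 had -0.20, 0.11 and -0.29, and BET1 -0.32, 0.015 and 0.14. Each of these changed sign between replicates, as did SEC17 with -0.39, 0.057 and 0.24. SEC14 was even at -0.043, -0.14 and -0.093, an SD of 0.049, with its mean near the median of all junction means, -0.10.
In all, 3 of the 10 genes were below 0 in every replicate (SEC14, ERV41 and SNC1), against 65 of 219 junctions measured in every replicate (29.7%). Ribosomal protein genes made up 37 of those 65 junctions. In replicate 1 all 10 junctions were below 0, where the median over all junctions was -0.21. In replicate 2, where the median over all junctions was -0.078, 6 of the 10 were above 0.

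Total mRNA was compared next, through the exon features. No exon of the 10 genes passed by limma (0 calls), none reached an unadjusted p under 0.05 (0 of 10), and no exon of the table passed either (0 of 234, 0%, with 30 at an unadjusted p under 0.05). Outside ribosomal protein genes 9 of 135 exons reached that unadjusted level. All 10 means were below 0, as were 174 of 234 exon means in the table. Over the 10 exons the median was -0.18, -0.14 and -0.13 in the 3 replicates (-0.15 ± 0.026, SD, n = 3). Over all exons it was -0.13 ± 0.057 (SD, n = 3).

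SAR1 had -0.59, -0.47 and -0.034 (-0.36 ± 0.17, adjusted p = 0.42), all below 0. SEC17 had -0.31, -0.21 and -0.36 (-0.29 ± 0.15, adjusted p = 0.43), and SEC14 -0.17, -0.55 and -0.13 (-0.28 ± 0.17, adjusted p = 0.46). SEC27 had -0.12, -0.33 and -0.32 (-0.26 ± 0.16, adjusted p = 0.46). These 4 genes and ERV41, at -0.057, -0.071 and -0.14, were below 0 in all 3 replicates, which makes 5 of 10, against 78 of 234 exons in the table (33.3%). Ribosomal protein genes made up 48 of those 78 exons.

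BET1 had the lowest mean, -0.41 ± 0.23, from values of -0.19, 0.061 and -1.10. A single low value in replicate 3 carried it, and its SD of 0.61 was the seventh largest of 234. YIP3 had -0.52, -0.35 and 0.32 (-0.18 ± 0.20, adjusted p = 0.71) and YOP1 -0.49, 0.048 and 0.11 (-0.11 ± 0.18, adjusted p = 0.83). BOS1 and SNC1 stayed near 0, with -0.055, 0.066 and -0.084 for BOS1 and -0.034, 0.045 and -0.13 for SNC1. For SNC1 the 95% interval of the exon mean ran from -0.40 to 0.32.

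Differences between the classes of a gene were tested because a centring applied alike to all features of an array cancels in them. The normalization is not given, so whether the deposited values were centred in that way is not known. Intron minus junction is the change, S2197F over wild type, of intron signal relative to spliced signal. It rose for 3 of the 10 genes and fell for 0, against 52 higher (21.1%) and 1 lower (0.405%) of 247 rows. Outside ribosomal protein genes 18 of 146 rows rose. The 3 were YIP3, YOP1 and ERV41. All 10 means were above 0, as were 210 of 247 in the table.

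YIP3 had the highest intron minus junction of the whole table, with 1.86, 0.63 and 3.45 in the 3 replicates (1.98 ± 0.32, 3.95-fold, limma adjusted p = 3.73e-06). Its SD was 1.41, the fourth largest of 247, and in replicate 2 it ranked 71. Without replicate 3, where 2 of 240 rows in the table passed, the mean was 1.25 and missed the threshold (adjusted p = 0.10). With its own variance the adjusted p was 0.33. The adjusted p was 0.024 with robust variances and 0.0061 when the 3 kinds of difference shared a fit. In the main fit of intron minus junction limma drew the variances strongly together (57.2 prior degrees of freedom), so the SE does not carry the spread of YIP3.

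YOP1 had 0.86, -0.020 and 1.65 (0.83 ± 0.29, 1.78-fold, adjusted p = 0.033). The call was lost without replicate 1 (0.81, adjusted p = 0.097), without replicate 3 (0.42, adjusted p = 0.45) and when the 3 kinds of difference shared a fit (adjusted p = 0.059). ERV41 had 0.70, 1.04 and 0.50 (0.75 ± 0.28, 1.68-fold, adjusted p = 0.046). Its replicates were closer together, with an SD of 0.28, and all were above 0. Its call was lost when any replicate was left out, with means of 0.60 to 0.87 and adjusted p of 0.092 to 0.26. With their own variances the adjusted p was 0.43 for YOP1 and 0.25 for ERV41.

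The other 7 genes did not pass. SEC27 had 0.35, 0.63 and 0.42 (0.47 ± 0.28, adjusted p = 0.23), and SNC1 0.23, 0.45 and 0.51 (0.40 ± 0.28, adjusted p = 0.32). SEC17 had 0.65, 0.27 and 0.28 (0.40 ± 0.28, adjusted p = 0.32), and SAR1 0.76, 0.086 and 0.27 (0.37 ± 0.28, adjusted p = 0.36). These 4 genes were above 0 in every replicate, and so were YIP3, ERV41 and BOS1, which makes 7 of 10, against 123 of 214 rows measured in every replicate (57.5%). Ribosomal protein genes made up 69 of those 123 rows. BET1 had 0.66, -0.14 and 0.59, BOS1 0.0060, 0.028 and 1.03, and SEC14 -0.30, -0.050 and 0.76. The SEC14 mean of 0.14 was the lowest of the 10. The median over the 10 genes was 0.46 ± 0.25 and over all rows 0.43 ± 0.091 (SD of the replicate medians, n = 3 each).

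**Figure D3:**
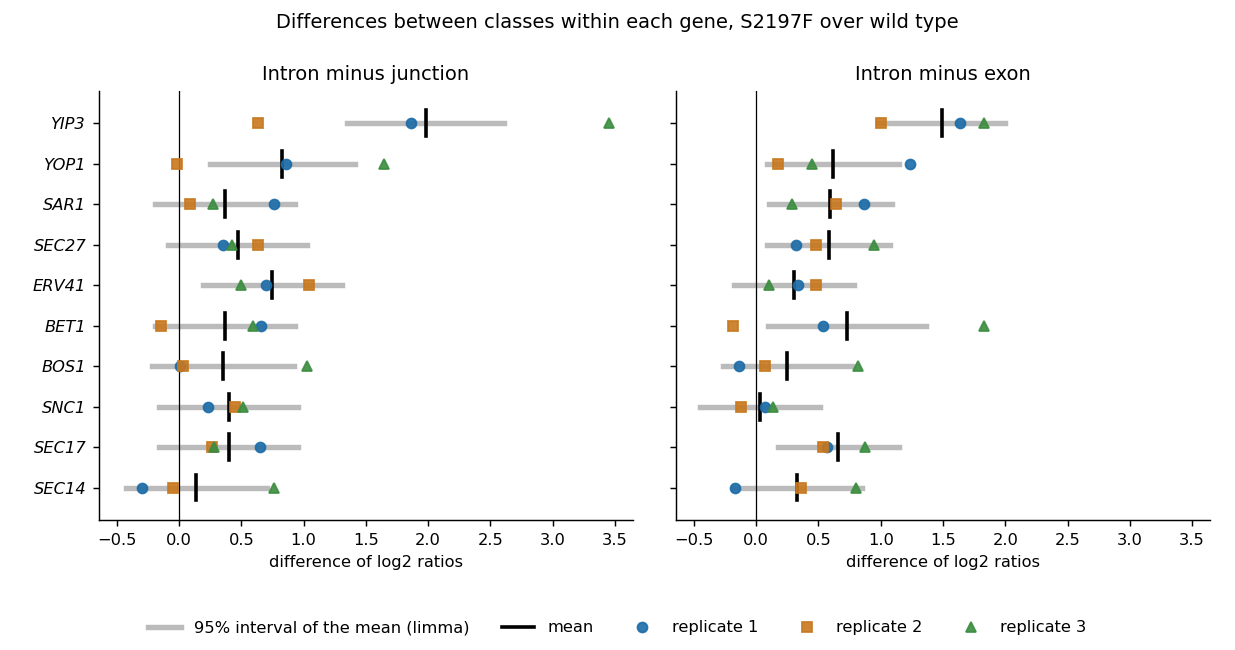
Difference of log2 ratios within each gene (horizontal axis), intron minus junction on the left and intron minus exon on the right, with 1 symbol per replicate, a black bar at the mean and a grey bar for limma's 95% interval. YIP3 has the highest mean in both panels, 1.98 and 1.49, and its replicates are closer together for intron minus exon.

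Intron minus exon sets intron signal against total mRNA. It rose for 2 of the 10 genes, YIP3 and SEC17, and fell for 0, against 72 higher (29.3%) and 0 lower (0%) of 246 rows. Outside ribosomal protein genes 14 of 145 rows rose (9.66%). YIP3 had 1.63, 1.01 and 1.83 (1.49 ± 0.24, 2.81-fold, adjusted p = 0.00073), the fifth highest of 246. Here its SD was 0.43, smaller than for intron or junction minus exon. Without replicate 1, where no row of the table passed, the mean was 1.42 (adjusted p = 0.077).

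SEC17 had 0.57, 0.54 and 0.88 (0.66 ± 0.23, 1.58-fold, adjusted p = 0.038), all above 0. Its call was lost when any replicate was left out, with means of 0.55 to 0.72 and adjusted p of 0.10 to 0.17, and in the fit shared by the differences (adjusted p = 0.052). With their own variances the adjusted p was 0.17 for both YIP3 and SEC17. BET1 had 0.54, -0.19 and 1.83 (0.73 ± 0.30, adjusted p = 0.075). It passed without replicate 2, at 1.18 (adjusted p = 0.014). It did not pass without replicate 1 (0.82, adjusted p = 0.25) or without replicate 3 (0.18, adjusted p = 0.74). The BET1 SD of 1.02 was the fifth largest of 246. SAR1 had 0.87, 0.64 and 0.28 (0.60 ± 0.23, adjusted p = 0.063) and passed without replicate 3, at 0.75 (adjusted p = 0.040). It did not pass without replicate 1 (0.46, adjusted p = 0.20) or without replicate 2 (0.57, adjusted p = 0.28).

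YOP1 had 1.23, 0.17 and 0.45 (0.62 ± 0.25, adjusted p = 0.073), and SEC27 0.32, 0.48 and 0.94 (0.58 ± 0.24, adjusted p = 0.072). Both were above 0 in all replicates without passing. ERV41, at 0.34, 0.48 and 0.10, was also above 0 throughout (0.31 ± 0.23, adjusted p = 0.33). SEC14 had -0.17, 0.36 and 0.80, BOS1 -0.14, 0.071 and 0.82, and SNC1 0.073, -0.12 and 0.14. SNC1 was the lowest at 0.031 ± 0.23. Unadjusted, 6 of the 10 genes were higher at p under 0.05, against 101 of 246 rows and 26 of 145 outside ribosomal protein genes. In all, 6 genes were above 0 in every replicate (YIP3, YOP1, SAR1, SEC27, ERV41 and SEC17), against 130 of 240 rows measured in every replicate (54.2%). Ribosomal protein genes made up 85 of those 130 rows.

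Junction minus exon, which sets spliced against total mRNA, had 5 means above and 5 below 0. By limma 0 of the 10 genes passed, 0 reached an unadjusted p under 0.05, and 0 of 244 rows in the table passed (0%, with 11 at an unadjusted p under 0.05). ERV41 and SNC1 were below 0 in all replicates, as were 34 of 216 rows (15.7%), with -0.37, -0.57 and -0.40 for ERV41 (-0.44 ± 0.20, adjusted p = 0.61) and -0.16, -0.57 and -0.38 for SNC1 (-0.37 ± 0.20, adjusted p = 0.70). SAR1, with 0.11, 0.55 and 0.014, and SEC14, with 0.12, 0.41 and 0.038, were above 0 in all replicates, as were 39 of 216 rows (18.1%). YIP3 had the lowest mean, -0.49 ± 0.36, from values of -0.23, 0.37 and -1.62. Without replicate 3 that mean was 0.074. BET1 had the highest mean, 0.36 ± 0.30, from -0.12, -0.046 and 1.24, and YOP1 had 0.37, 0.19 and -1.20. In both genes replicate 3 set the sign of the mean. SEC17 had -0.078, 0.27 and 0.60, SEC27 -0.035, -0.15 and 0.52, and BOS1 -0.15, 0.043 and -0.21, so each of these also changed sign between replicates.

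**Figure D4:**
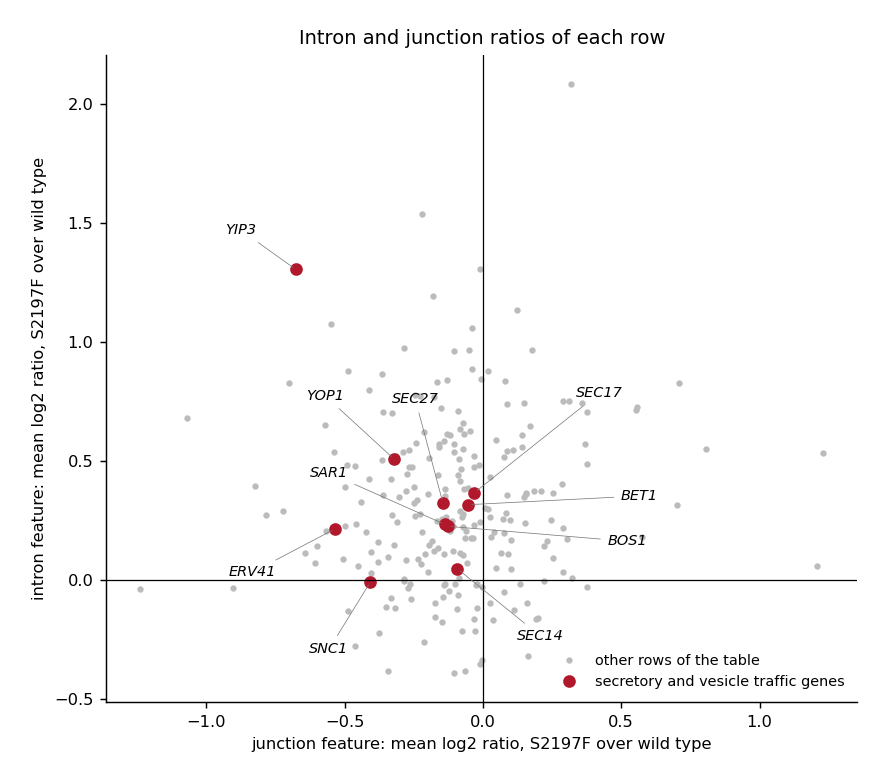
Mean log2 ratio of S2197F over wild type of the intron feature (vertical axis) against that of the junction feature (horizontal axis) for each row of the table, with the 10 genes in red and the other rows in grey. The point at the top is SNR17A, and SNR17B, which shares its junction feature, is not drawn. YIP3 lies apart at the upper left with 1.30 and -0.68.

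Taking the signs of the 3 means together, 9 of the 10 genes combined an intron above 0 with a junction and an exon below 0. SNC1 was the exception, with all 3 means below 0. The same combination was found in 106 of 227 rows with all classes (46.7%). These signs use values as deposited, in which the medians of the junction and exon classes lie below 0. After centring on exon features the junction means of BET1, BOS1, SEC17 and SEC14 and the exon means of YOP1, ERV41, BOS1 and SNC1 were above 0, and so was the intron mean of SNC1.

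The rows most like YIP3 were found by the Euclidean distance over its 9 values, among 209 other rows with no missing value. Among the 3 nearest were the ribosomal protein genes RPS7A and RPS14B, each at a distance of 1.56, against a median distance of 2.72. RPS7A had 0.97, 0.66 and 1.01 for its intron and -0.78, -0.16 and -0.53 for its junction. The RPS7A intron was thus above 0 and its junction below 0 in all 3 replicates. RPS14B had 0.67, 0.47 and 1.76 for its intron and -0.098, 0.20 and -0.25 for its junction. Its junction thus changed sign between replicates.

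Other membrane traffic genes on 3 further lists were taken for comparison: 4 of the early secretory pathway, 6 of the endosome and vacuole, and 5 enzymes and membrane proteins of the endoplasmic reticulum. Of these 15 genes 13 had a row, with 14 intron features. By limma 0 of the 14 introns passed, against 10.1% of introns outside ribosomal protein genes, and 1 reached an unadjusted p under 0.05, and 0 passed in the junction, exon or difference classes. An unadjusted p under 0.05 was also reached by 2 of 14 junctions. Over all genes 33 of 248 junctions reached it, and outside ribosomal protein genes 16 of 146. For intron minus junction 3 of 14 rows reached it, against 86 of 247 over all genes and 30 of 146 outside ribosomal protein genes. For exons, intron minus exon and junction minus exon, 0 reached it. Over all genes 30 of 234, 102 of 246 and 11 of 244 did, and outside ribosomal protein genes 9 of 135, 27 of 145 and 5 of 143. Their median intron ratio was 0.20, against 0.27 for the 10 genes, 0.15 for introns outside ribosomal protein genes and 0.27 for all introns. The highest were GOT1, a membrane protein of traffic to and within the Golgi, at 0.51 ± 0.19 (0.36, 0.25 and 0.92; adjusted p = 0.081), and BIG1, an endoplasmic reticulum protein needed for cell wall glucan, at 0.33 ± 0.24 from 2 replicates. The lowest were APS3, a subunit of the AP-3 adaptor of vacuolar transport, at -0.21 ± 0.16 and SCS22, a tether between the endoplasmic reticulum and the plasma membrane, at -0.10 ± 0.23. None of the 14 introns was as high as that of YIP3, and the highest intron minus junction among them was 0.77. The 10 genes and these lists were chosen with earlier results of these data known, so this comparison is descriptive and not a test.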

How the data were processed

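RNA of S2197F and wild type cultures was compared on 2-colour splicing-sensitive arrays, 3 replicates of an array and its dye exchange. The authors deposited 1 log ratio per feature and replicate, taken here as log2, of S2197F over wild type, made from each array and its dye flip, per the labels. The sources used here do not give the image analysis, background correction, filter, normalization or genome build. No depth exists for these ratios, and the number of arrays limits precision. A table of single-array spot values has no gene names and was left out.

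Tests covered each feature measured in 2 or more replicates (251 introns, 248 junctions, 234 exons, repeated features counted once), against 0 in 1 limma 3.58.1 fit (R 4.3.3), two-sided, with Benjamini-Hochberg adjustment within each class over the whole table. Differences of classes were fitted separately. The script was tested on simulated data. Alternatives were each replicate left out, exon centring, complete values only, robust and unshared variances, and other groupings of the fits. All members are named by rule, with the 3 rows nearest to YIP3 (of which 1 is not reported here) and the 2 highest and 2 lowest introns of the other traffic lists. Members and lists were chosen with earlier results of these data known. Symbols of all 10 locus tags match RefSeq.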

Additional observations from a re-analysis of the deposited data

How the results depend on the processing

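The limits are the 3 replicates, the unstated log base and normalization, and the borrowing of variances. With each feature's own variance 0 of the 10 genes passed in any comparison, and the table's calls fell to 3 introns, 0 junctions, 0 intron minus junction and 0 intron minus exon. Leaving out a replicate gave 0 to 1 of the 10 genes for introns, 0 to 2 for intron minus junction and 0 to 2 for intron minus exon, and over all features 2 to 47 for introns, 2 to 37 for intron minus junction, 0 to 57 for intron minus exon and 0 to 11 for junctions. The fewest calls came without replicate 2 for introns, without replicate 3 for intron minus junction and without replicate 1 for intron minus exon. Exon centring gave 3 of the 10 introns (YIP3, YOP1 and SEC17) of 91 in the table and 0 junctions. Junctions fitted alone gave 0 calls, and the shared fit of differences left 1 of the 10 genes for intron minus exon. No exon or junction minus exon call was made under any setting run (0 calls).

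Every sign that changed belonged to a mean that did not pass. Over the left-out replicates the intron means ranged from -0.029 to 0.44 for BOS1, -0.032 to 0.025 for SNC1 and -0.26 to 0.24 for SEC14. Junction means ranged from -0.60 to 0.062 for YOP1, -0.25 to 0.033 for SAR1, -0.32 to 0.025 for SEC27, -0.15 to 0.077 for BET1 and -0.17 to 0.15 for SEC17, and exon means from -0.22 to 0.081 for YOP1, -0.069 to 0.0056 for BOS1 and -0.081 to 0.0053 for SNC1. Intron minus junction of SEC14 ranged from -0.17 to 0.36, intron minus exon of BOS1 from -0.035 to 0.44 and of SNC1 from -0.023 to 0.11. Junction minus exon ranged from -0.92 to 0.074 for YIP3, -0.50 to 0.28 for YOP1, -0.093 to 0.24 for SEC27 and -0.084 to 0.60 for BET1. After exon centring the SNC1 intron was 0.13, the junctions of BET1, BOS1, SEC17 and SEC14 were 0.082, 0.0081, 0.10 and 0.044, and the exons of YOP1, ERV41, BOS1 and SNC1 were 0.028, 0.046, 0.11 and 0.097. The causes were not tested. The pairing of cultures is in each ratio, so the test against 0 is the paired one and no further replicate block could be fitted.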
